A study of Drosophila melanogaster with 6 samples.

Results

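Wingless is the secreted Wnt ligand that patterns the Drosophila wing disc, where a stripe of cells along the future wing margin produces it. The signal stabilises the β-catenin Armadillo by acting on a cytoplasmic destruction complex built on the scaffold Axin, and Armadillo then drives target genes together with a TCF factor. Several targets encode inhibitors of the pathway itself, so their transcripts are widely used as readouts of signalling in the disc. A list of 10 genes of the pathway was examined, and probe sets were taken where the probe-to-gene table gave a single symbol of the list. That rule found 4 genes with 6 probe sets, out of 18769 probe sets tested. They are Axn (the scaffold Axin), nkd and Notum (inhibitors that the pathway induces), and Dll (Distal-less, a homeodomain factor that Wingless induces in the wing pouch), the last with 3 probe sets. The remaining 6 genes of the list, wg, fz, fz2, fz3, arm and pan, which encode the ligand, 3 Frizzled receptors, Armadillo and the TCF factor, were not analysed here. No result below is therefore about Wingless itself or these 3 receptors, although another Wnt ligand and other receptors were measured.

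The data are expression arrays of whole wing imaginal discs from wall-climbing larvae of the third instar, grown at 25 °C, with 30 discs per sample. There were 3 groups of 2 arrays. In the GFP RNAi group, the driver act5Cgal4, built on a promoter active in most cells, expressed a hairpin against GFP in a w1118 background. In the LID RNAi group, that driver expressed a hairpin against lid in larvae carrying the allele lidk06801, so that hairpin and allele cannot be told apart. The wild type group has no RNAi by its title and RNAi label, although its background label also names w1118 and the driver. Nothing in the labels says that the 2 arrays of a group came from separate dissections, so p-values measure the spread between these samples, which may be technical. The number of arrays limits the precision of every comparison.

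All values are log2 levels after RMA. Differences are between group means on the log2 scale with the standard error (SE) and the 95% interval of a limma fit to all 6 arrays, and adjusted p-values are Benjamini-Hochberg values over the 18769 probe sets, called below 0.05. A difference of -1 is a halving of the signal. Intervals are for single probe sets and are not adjusted for their number.

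The targeted transcript was low on both LID RNAi arrays. The gene lid, now named Kdm5, encodes an enzyme that removes methyl groups from lysine 4 of histone H3. It read 10.42 and 10.33 on the wild type arrays, 10.32 and 10.45 with GFP RNAi and 8.36 and 8.04 with LID RNAi. LID RNAi thus stood at 22.0% of GFP RNAi (95% interval 17.2% to 28.0%, limma adjusted p = 0.0309) and at 22.2% of wild type (17.4% to 28.3%, adjusted p = 0.00877). The first of these calls, against GFP RNAi, was lost when any 1 of the 6 arrays was left out. It was also lost in a fit to these 2 groups alone (limma adjusted p = 0.131) and with a replicate block (adjusted p = 0.0820). Leaving out a wild type array gave the same values as that fit to 2 groups, so these are not separate checks. The second call, against wild type, was lost without wild type replicate 1 or replicate 2. Both differences kept their sign in all of these.

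The tissue label was checked against markers. All 5 measured wing disc markers (vg, nub, ap, pdm2 and ara) lay above background on all 6 arrays, where background is a log2 level of 4.82, the 95% point of 27 control probe sets for Bacillus subtilis transcripts. Their mean level was 11.94 and 12.04 on the wild type arrays, 12.01 and 11.98 with GFP RNAi and 11.89 and 11.83 with LID RNAi, and 2 of the 5 were below all 4 control arrays on both LID RNAi arrays, as were 12.8% of all probe sets. Of 7 eye-antennal markers (ey, toy, gl, eya, so, dan and danr) ey was within background on all arrays. The 4 above it on all arrays were gl, eya, so and danr, with means over the arrays of 10.28 for eya and 9.31 for so. None of the 7 is particular to leg discs, so leg disc tissue was not checked. Markers of haemocytes, the larval blood cells, were detected as well, 9 of 10 on all 6 arrays. Their mean level was 9.55 and 8.81 on the wild type arrays, 9.20 and 9.53 with GFP RNAi and 10.37 and 10.07 with LID RNAi, and 6 of the 10 were above all 4 control arrays on both LID RNAi arrays, as were 10.6% of all probe sets. Salivary gland markers had a mean of 9.32 on LID RNAi replicate 2, against 7.80 to 8.28 on the other 5 arrays. Its members differed: ng1 and ng2, 2 of the 6, were above all 4 control arrays on both LID RNAi arrays. Sgs3 and Sgs5 were below all 4 on LID RNAi replicate 1, at 9.68 and 8.52. The 2 LID RNAi arrays were also the extremes in the gap between the 3′ and 5′ ends of GAPDH, 0.88 on replicate 1 and 1.20 on replicate 2, against 0.92 to 1.06 on the control arrays. They were the extremes in the mean of 3 fat body markers too, 12.21 on replicate 1 and 10.71 on replicate 2. Across probe sets, LID RNAi replicate 1 correlated with a GFP RNAi array at r = 0.993 and with its own replicate at r = 0.990. The part of these differences in the results below was not tested. In whole discs, fewer cells of a type and less RNA per cell cannot be told apart.

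None of the 4 Wingless signalling genes changed with lid knockdown by the test used. In limma, 0 of their 6 probe sets passed the threshold in LID RNAi against GFP RNAi, a comparison that called 0.469% of all probe sets. The count was 0 of 6 against wild type (2.34% of all probe sets called), 0 of 6 against the mean of both controls (1.43%), 0 of 6 between GFP RNAi and wild type (0.863%) and 0 of 6 in the test for any difference among the 3 groups (1.74%). With adjusted shares this small, 0 of 6 does not set these genes apart from the rest. At an unadjusted p under 0.05 the count was also 0 of 6 in each of these, where the share of all probe sets was, in the same order, 12.4%, 16.9%, 16%, 11.4% and 16.2%. The intervals show how large a change the arrays leave possible, and they are given gene by gene.

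Axn was the flattest of the 4 genes in LID RNAi against GFP RNAi. Axin holds the kinases that mark Armadillo for destruction, so that loss of Axin switches the pathway on. Its probe set 1632134_s_at read 11.58 and 11.77 on the wild type arrays, 11.69 and 11.74 with GFP RNAi and 11.79 and 11.66 with LID RNAi. The arrays of the 3 groups overlapped. The group means were 11.68 ± 0.13 (SD, n = 2) in wild type, 11.72 ± 0.038 with GFP RNAi and 11.73 ± 0.093 with LID RNAi. The difference between LID RNAi and GFP RNAi was 0.01 ± 0.10 (SE), which puts LID RNAi at 101% of GFP RNAi with a 95% interval from 84.2% to 121% (limma adjusted p = 0.976). Against wild type it was 0.05, at 104% with an interval from 86.5% to 124% (adjusted p = 0.848).

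The feedback inhibitor nkd had a narrow spread. Naked cuticle binds the transducer Dishevelled and dampens the response in cells that receive the ligand. The probe set 1630361_at read 11.93 and 12.04 on the wild type arrays, 12.00 and 12.06 with GFP RNAi and 11.92 and 11.92 with LID RNAi. Both LID RNAi arrays were below all 4 control arrays, by 0.01 or less at the nearest point. The means were 11.99 ± 0.082 (SD, n = 2) in wild type, 12.03 ± 0.041 with GFP RNAi and 11.92 ± 0.0051 with LID RNAi. LID RNAi differed from GFP RNAi by -0.11 ± 0.08 (SE), at 92.9% with an interval from 80.8% to 107% (limma adjusted p = 0.662). Against wild type the difference was -0.07, at 95.6% with an interval from 83.1% to 110% (adjusted p = 0.734).

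Notum differed more between wild type and either RNAi group than between the RNAi groups, and none of these differences passed the threshold. It encodes a secreted enzyme that removes the lipid of Wnt ligands and so inactivates them outside the cell. The probe set 1637977_a_at read 9.37 and 9.51 on the wild type arrays, 9.55 and 9.74 with GFP RNAi and 9.52 and 9.66 with LID RNAi. All 4 RNAi arrays were above both wild type arrays, and the RNAi groups overlapped. The means were 9.44 ± 0.097 (SD, n = 2) in wild type, 9.64 ± 0.13 with GFP RNAi and 9.59 ± 0.098 with LID RNAi. GFP RNAi differed from wild type by 0.20 ± 0.11 (SE), at 115% with an interval from 94.4% to 140% (limma adjusted p = 0.592). LID RNAi differed from wild type by 0.15, at 111% with an interval from 91.1% to 135% (adjusted p = 0.571), and from GFP RNAi by -0.05, at 96.5% with an interval from 79.2% to 118% (adjusted p = 0.898).

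Dll was measured by 3 probe sets, which share a target and are not independent of each other. All 3 gave a lower mean in LID RNAi than in either control, with unequal sizes. Array medians ran from 6.31 on LID RNAi replicate 2 to 6.43 on wild type replicate 1, and with each array centred on its median the differences from wild type were -0.17, -0.04 and -0.01 for 1625771_at, 1636088_at and 1630237_a_at. The probe set 1625771_at had the largest differences of the 6. It read 8.22 and 8.27 on the wild type arrays, 8.38 and 8.25 with GFP RNAi and 7.84 and 8.16 with LID RNAi. Both LID RNAi arrays were below all 4 control arrays, and they lay farther from each other than the 4 control arrays did. The means were 8.25 ± 0.038 (SD, n = 2) in wild type, 8.32 ± 0.091 with GFP RNAi and 8.00 ± 0.23 with LID RNAi. The difference from GFP RNAi was -0.32 ± 0.13 (SE), at 80.3% with an interval from 63.4% to 102% (unadjusted p = 0.0617, limma adjusted p = 0.438), and from wild type -0.25, at 84.3% with an interval from 66.6% to 107% (adjusted p = 0.440). Without LID RNAi replicate 1, the lower array, the difference from GFP RNAi was -0.16 (adjusted p = 0.511), and without LID RNAi replicate 2 it was -0.48 (adjusted p = 0.269).

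The other Dll probe sets had narrower intervals. The probe set 1636088_at read 11.48 and 11.48 on the wild type arrays, 11.52 and 11.46 with GFP RNAi and 11.43 and 11.30 with LID RNAi, again without overlap between LID RNAi and the controls. Its difference from GFP RNAi was -0.13 ± 0.08 (SE), at 91.4% with an interval from 79.2% to 106% (limma adjusted p = 0.607), and from wild type -0.11, at 92.4% with an interval from 80.0% to 107% (adjusted p = 0.556). The probe set 1630237_a_at read 11.65 and 11.66 on the wild type arrays, 11.69 and 11.55 with GFP RNAi and 11.55 and 11.58 with LID RNAi, where GFP RNAi replicate 2 lay within the LID RNAi arrays. Its difference from GFP RNAi was -0.05 ± 0.08 (SE), at 96.4% with an interval from 83.6% to 111% (adjusted p = 0.840), and from wild type -0.09, at 94.2% with an interval from 81.7% to 109% (adjusted p = 0.654). Single arrays moved both values: without LID RNAi replicate 1 or replicate 2 that of 1636088_at from GFP RNAi was -0.19 or -0.06, and without GFP RNAi replicate 1 or replicate 2 that of 1630237_a_at was 0.01 or -0.12. All 3 intervals against GFP RNAi include no change, and the lowest bound among them is 63.4%.

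**Figure D1:**
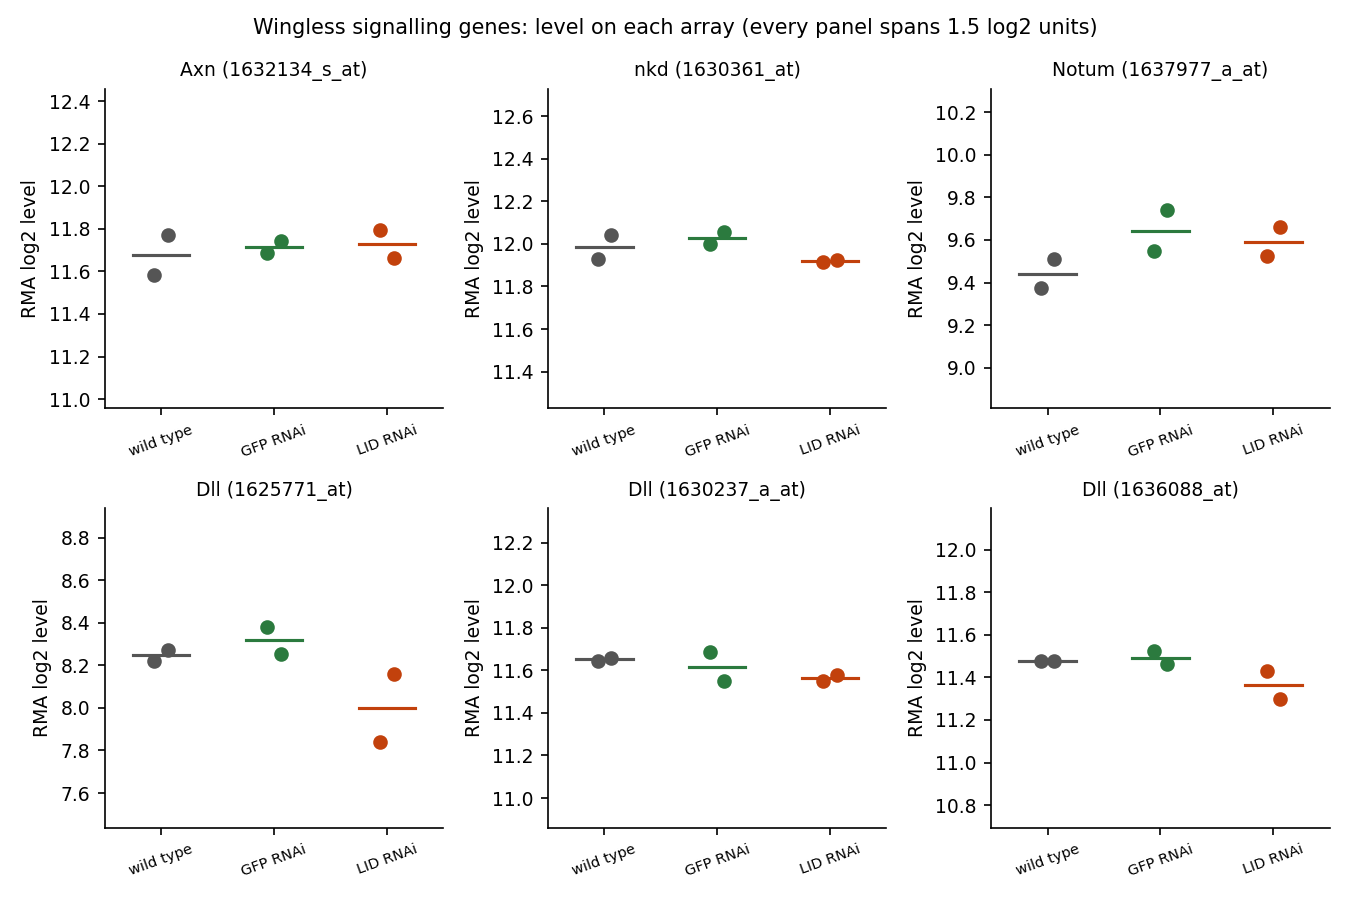
RMA log2 level (y axis) of the 6 probe sets of Axn, nkd, Notum and Dll in the 3 groups (x axis). Points are single arrays and bars are means of 2 arrays. Every panel spans the same height, and the LID RNAi arrays of Dll probe set 1625771_at, at 7.84 and 8.16, show the widest spread.

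Read together, 3 of the 6 probe sets (nkd and 2 of Dll) had both LID RNAi arrays below all 4 control arrays, and 0 had both above. Of all probe sets 12.8% had both below and 10.6% both above. The levels counted were not centred on array medians, which were lower with LID RNAi (6.36 and 6.31) than in wild type (6.43 and 6.38). The counts were not repeated on centred arrays. Over the alternatives described below, the difference of nkd from wild type ran from -0.12 to 0.01. The 3 probe sets are 2 genes, and their separation from the controls was small: differences from GFP RNAi ranged from -0.32 to 0.01 over the 6, with a median of -0.08 against 0.01 for all probe sets. Against wild type the median was -0.08, beside -0.01 for all probe sets, and between GFP RNAi and wild type it was 0.04, beside -0.02. These comparisons share arrays and are not independent. For scale, the smallest difference past the threshold anywhere in the table was 0.73 in LID RNAi against GFP RNAi and 0.48 in LID RNAi against wild type.

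**Figure D2:**
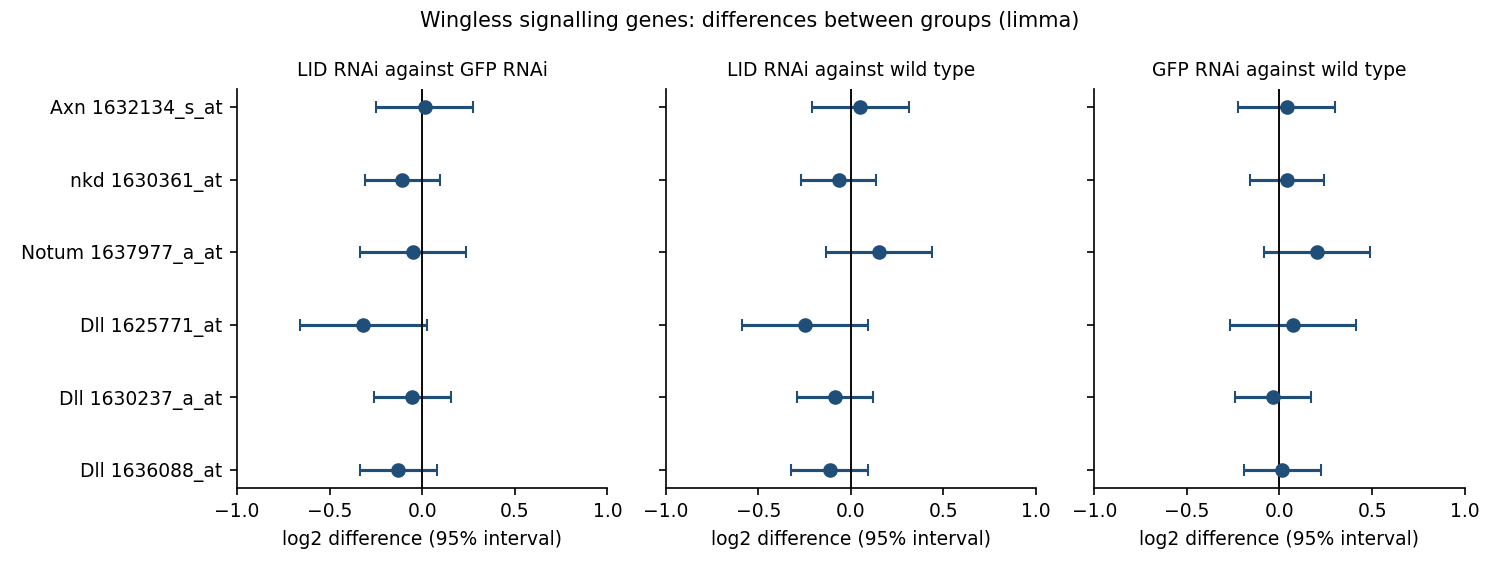
Log2 difference (x axis) with its 95% interval from limma for the 6 probe sets of Axn, nkd, Notum and Dll (y axis) in 3 comparisons. All intervals cross 0, and the one farthest to the low side is that of Dll probe set 1625771_at against GFP RNAi, from -0.66 to 0.02.

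Genes that act around these 4 were read from a list of 55 further pathway genes in 7 roles, of which 38 had a probe set with a single symbol. In LID RNAi against GFP RNAi 0 of the 38 passed the threshold in limma, and 4 had an unadjusted p under 0.05, against 12.4% of all probe sets. In LID RNAi against wild type 2 fell, nej and sfl, and 0 rose, where 1.49% of all probe sets fell, and 10 had an unadjusted p under 0.05, against 16.9% of all. Against the mean of both controls the same 2 genes fell, where 0.943% of all probe sets did. These calls were lost when any 1 array was left out and with the replicate number as a block (adjusted p = 0.0642 for nej and 0.0594 for sfl). Between GFP RNAi and wild type 0 passed in limma, and 6 had an unadjusted p under 0.05, against 11.4% of all probe sets. Against the mean of both controls 8 of the 38 had an unadjusted limma p under 0.05, against 16% of all probe sets. Both LID RNAi arrays were below all 4 control arrays for 10 of the 38 and above them for 1, against 12.8% and 10.6% of all. The median difference of the 38 was -0.04 against GFP RNAi and -0.03 against wild type.

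The gene nej encodes CBP, a histone acetyltransferase and coactivator with many partners, which in the fly can also restrain TCF. Its probe set 1622925_at read 12.47 and 12.45 on the wild type arrays, 12.08 and 12.00 with GFP RNAi and 11.47 and 11.50 with LID RNAi. The 3 groups did not overlap, and GFP RNAi lay between the other groups. In LID RNAi nej fell by 0.97 ± 0.07 (SE) against wild type, to 50.9% (interval 44.9% to 57.8%, limma adjusted p = 0.0123). Against GFP RNAi the difference was -0.55 (adjusted p = 0.0712), and GFP RNAi stood at -0.42 against wild type (adjusted p = 0.111). A second probe set of nej, 1637135_at, showed no such separation, although its group means had the same order. It read 11.11 and 11.24 on the wild type arrays, 11.05 and 11.19 with GFP RNAi and 11.17 and 10.84 with LID RNAi, with a difference of -0.17 from wild type (interval -0.53 to 0.20, adjusted p = 0.629).

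The gene sfl encodes Sulfateless, which sulfates heparan sulfate chains, the sugar chains on cell surface glypicans that Wingless needs for its spread and reception. It read 9.32 and 9.17 on the wild type arrays, 8.86 and 8.82 with GFP RNAi and 8.26 and 8.17 with LID RNAi. The order of the groups was that of nej, again without overlap. In LID RNAi sfl fell by 1.04 ± 0.09 (SE) against wild type, to 48.7% (interval 41.6% to 57.0%, limma adjusted p = 0.0161). Against GFP RNAi the difference was -0.63 (adjusted p = 0.0847), and GFP RNAi stood at -0.41 against wild type (adjusted p = 0.172). The calls of nej and sfl against wild type ended without wild type replicate 1, wild type replicate 2, LID RNAi replicate 2 or either GFP RNAi array. Leaving out a GFP RNAi array gave the same values as a fit to the 2 groups compared, so these are not separate checks. Over the alternatives described below, the difference lay between -0.99 and -0.90 for nej and between -1.11 and -0.96 for sfl.

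**Figure D3:**
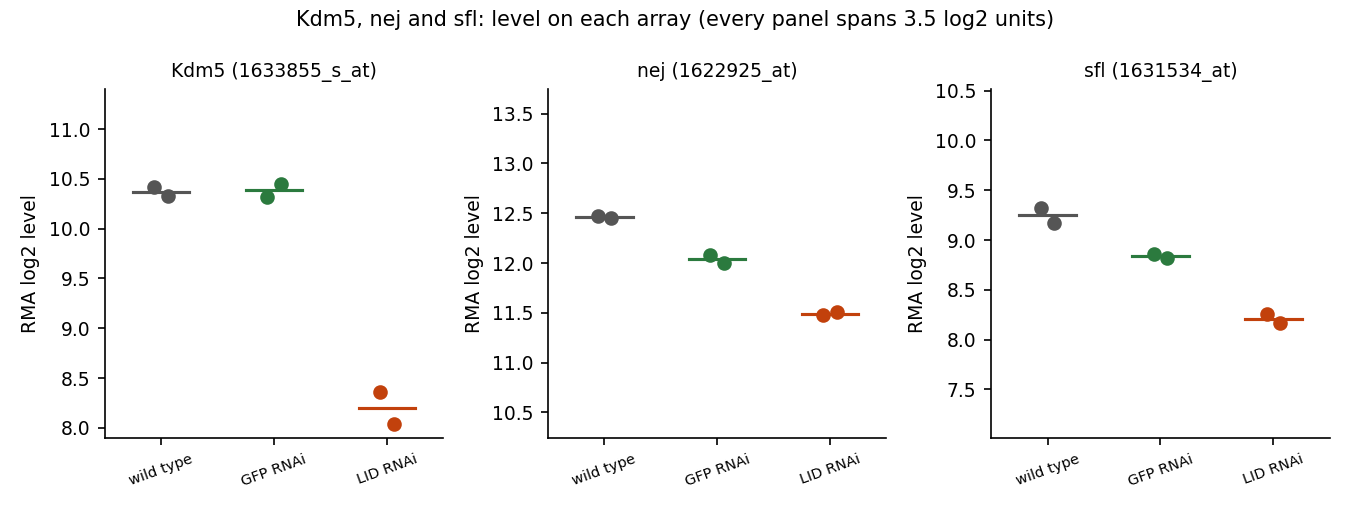
RMA log2 level (y axis) of Kdm5, nej (probe set 1622925_at) and sfl in the 3 groups (x axis), with points for single arrays and bars for means of 2 arrays. Kdm5 is low in LID RNAi alone, whereas nej and sfl step down from wild type to GFP RNAi to LID RNAi.

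Among the other roles, Wnt6, which lies in a cluster of Wnt genes with wg and was the 1 Wnt ligand measured of 6, stood at -0.43 against wild type (limma adjusted p = 0.103) and -0.19 against GFP RNAi (adjusted p = 0.508). It read 10.01 and 10.14 on the wild type arrays, 9.89 and 9.78 with GFP RNAi and 9.69 and 9.60 with LID RNAi, without overlap. All 4 genes of ligand secretion were measured and 0 passed, with differences from GFP RNAi between -0.12 for por, the acyltransferase that lipidates Wnt ligands, and -0.02. The cargo receptor wls, which carries the ligand to the surface, was at -0.05 (interval -0.23 to 0.12). Of 7 receptors and co-receptors 5 were measured and 0 passed, with -0.10 for the Ryk-family receptor drl and -0.34 for otk2, an Off-track family pseudokinase (adjusted p = 0.661 and 0.409). Drl-2 was within background on all arrays.

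Beside sfl, 4 glypicans and heparan sulfate enzymes were measured and did not pass. The glypican dlp, which binds Wingless at the cell surface, differed by -0.04 from GFP RNAi (interval -0.23 to 0.14) and by 0.02 from wild type. The exostosin botv, which helps to build heparan sulfate chains and was picked out after its values were seen, differed by -0.31 from each control (adjusted p = 0.249 and 0.162). In the cytoplasm, 6 of 10 transducers and destruction complex genes were measured, among them the kinases CkIalpha, gish and dco and the ubiquitin ligase subunit slmb, and 0 passed. Their differences from GFP RNAi lay between -0.14 for gish and 0.02.

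Of 11 nuclear cofactors and repressors 8 were measured, and 7 did not pass in any pair of groups. In LID RNAi 4 were above GFP RNAi and 4 below it, and 2 were above wild type and 6 below it. The gene hyx, named after its values were seen, was the 1 of the 38 with both LID RNAi arrays above all 4 control arrays. It read 11.38 and 11.34 on the wild type arrays, 11.45 and 11.43 with GFP RNAi and 11.48 and 11.67 with LID RNAi. The corepressor CtBP differed by less than 0.01 from GFP RNAi on probe set 1623106_s_at (adjusted p = 0.996, interval -0.18 to 0.18). On a second probe set, 1623869_at, CtBP differed by -0.11 from GFP RNAi (interval -0.32 to 0.11, adjusted p = 0.683) and by -0.11 from wild type (adjusted p = 0.569). There both LID RNAi arrays (8.82 and 8.80) lay below every control array, as for 12.8% of all probe sets. Cby, the fly Chibby, which binds Armadillo and opposes it in the nucleus, had the largest difference of the 38 genes from GFP RNAi, -0.69 ± 0.16 (SE, limma adjusted p = 0.213), and stood at -0.95 against wild type (adjusted p = 0.0720). It read 6.88 and 6.97 on the wild type arrays, 6.89 and 6.44 with GFP RNAi and 5.93 and 6.01 with LID RNAi, without overlap between LID RNAi and the controls.

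All 9 wing target and margin genes of the list were measured and 0 passed, with a median difference of -0.04 from GFP RNAi and -0.14 from wild type. In LID RNAi 7 were below GFP RNAi and 2 above it, and 6 were below wild type and 3 above it. The highest differences were those of the margin gene ct, 0.15 from GFP RNAi and 0.31 from wild type. Its other probe sets differed by 0.02 and -0.27 from GFP RNAi and by 0.13 and -0.21 from wild type. The pouch selector vg, a target of Wingless, differed by -0.13 from GFP RNAi (interval -0.34 to 0.07) and by -0.14 from wild type. A second vg probe set, 1623484_at, differed by -0.12 from GFP RNAi and by -0.04 from wild type (limma adjusted p = 0.600 and 0.805). The margin gene sens, a zinc finger factor of sensory precursors, differed by -0.18 from GFP RNAi (adjusted p = 0.682) and by -0.49 from wild type (adjusted p = 0.170). The T-box gene Doc1, named after its values were seen, separated wild type from both RNAi groups. It read 11.17 and 11.18 on the wild type arrays, 10.65 and 10.74 with GFP RNAi and 10.66 and 10.69 with LID RNAi, and its difference from wild type was -0.50 in LID RNAi (adjusted p = 0.0508) and -0.48 in GFP RNAi (adjusted p = 0.0907). The difference in LID RNAi passed with quantile normalization (adjusted p = 0.0484), a filter on dim probe sets (0.0314) and a variance trend (0.0149). Doc2 and Doc3, also named after their values were seen, differed in direction. Doc2 had means of 10.73 in wild type, 10.58 with GFP RNAi and 10.56 with LID RNAi. Doc3 was higher in both RNAi groups, at 10.32 and 10.38 on the wild type arrays, 10.48 and 10.58 with GFP RNAi and 10.52 and 10.67 with LID RNAi.

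**Figure D4:**
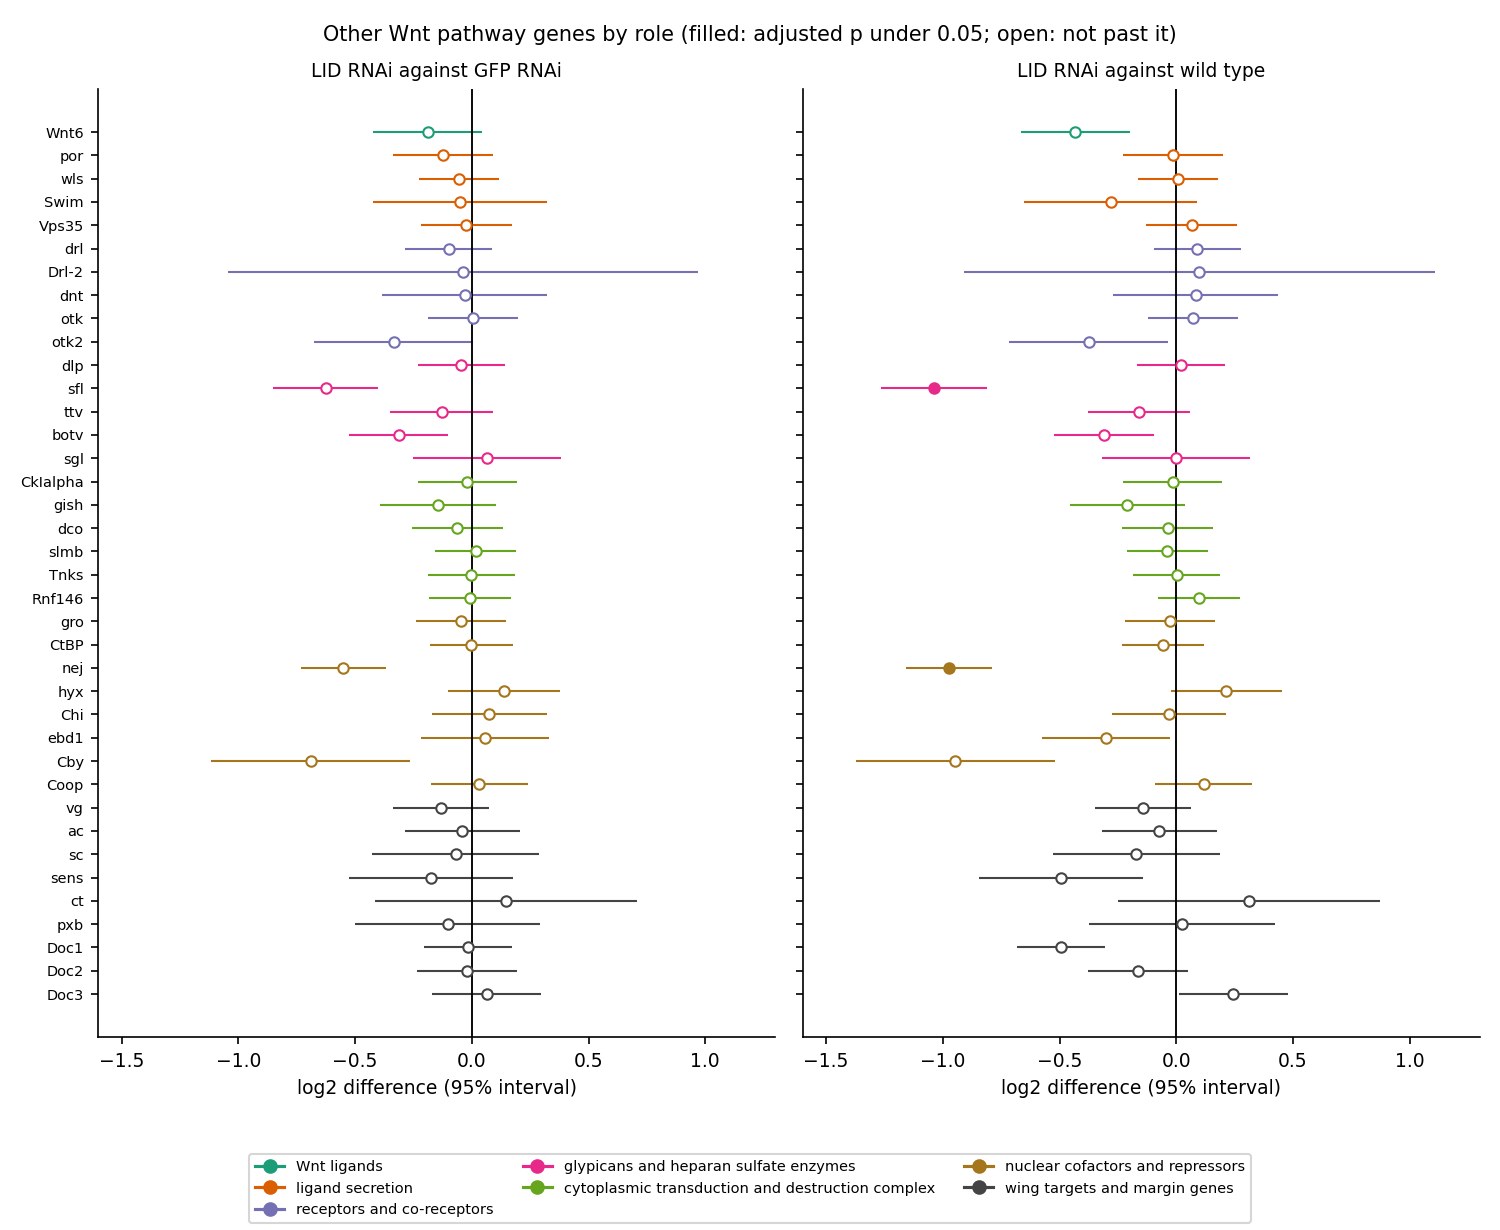
Log2 difference (x axis) with its 95% interval from limma for 38 further Wnt pathway genes (y axis), coloured by role, in LID RNAi against GFP RNAi and against wild type. Filled points passed the threshold, which nej and sfl did against wild type, and open points did not.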

How the data were processed

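The authors used RMA, as the submitters' processing notes name it without a version, and deposited 1 log2 value for each probe set and array. Before that, 25 ng of total RNA was amplified and biotin-labelled, per the labels. No further scaling was applied. Of 18952 probe sets 183 manufacturer controls were left out. Of the 18769 tested, 13647 carry 1 gene symbol (13544 matched to the gene table), 402 several and 4720 none. Samples were grouped by title. limma 3.58.1 in R 4.3.3 fitted 1 mean per group to all probe sets (3 residual and 1.77 prior degrees of freedom), and tests were two-sided. The script was tested on simulated data. Members, gene lists and background level were chosen with earlier results of these data known. Named are Kdm5, the members, and of the other pathway genes those past the threshold in a pair and, per role, the highest level and the largest difference from GFP RNAi. A pathway gene was represented by its probe set with the highest mean. Alternatives were 2 scalings, a filter on dim probe sets, fits to 2 groups, a variance trend, a replicate block and leaving out each array.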

Additional observations from a re-analysis of the deposited data

How the results depend on the processing

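Over 12 alternatives, 0 of the 6 probe sets of Axn, nkd, Notum and Dll passed the threshold in any comparison. The comparison with the mean of both controls and the test among groups were run in 11 of them. Fits to 2 groups do not hold either. The sign of a difference changed in 16 of 282 results, none past the threshold before or after. Leaving out 1 array of the group outside a pair repeats the fit to that pair alone, so these results are not all separate checks. Counts over all probe sets moved more. In LID RNAi against GFP RNAi 88 became 155 with the filter on dim probe sets (13382 tested), 3 with only these 2 groups, 247 with a variance trend and 0 to 6 without 1 array. In LID RNAi against wild type 439 became 99 with 2 groups, 784 with the trend and 24 to 324 without 1 array. In GFP RNAi against wild type 162 became 90, 325 and 4 to 90 in the same order. Against the mean of both controls 268 became 474 with the filter, 613 with the trend and 5 to 81 without 1 array, and for any difference among groups 326 became 510, 716 and 5 to 101. With the replicate block these 5 counts were 12, 200, 41, 41 and 53. Same-numbered arrays deviated together with r = 0.30, 0.06 and 0.22 across probe sets, and the labels give the numbers no shared day, so they were not taken as pairs. Of the 38 other pathway genes, nej also passed against GFP RNAi (1 gene) with the filter and with the trend, and nej and Doc1 (2 genes) passed between GFP RNAi and wild type with the trend. The 2 calls in LID RNAi against wild type became 3, with Doc1, under quantile normalization, the filter or the trend, 0 with only 2 groups and 0 to 2 without 1 array. Against the mean of both controls and among groups, they became 0 with the replicate block and 0 without any 1 array. The cause was not tested, except that fewer arrays enter some fits and fewer probe sets the filter.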

Other observations

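The margin gene ct, a homeodomain factor, has 3 probe sets that did not differ between groups past the threshold but read higher on the array numbered 2 in all 3 groups, in 9 of 9 comparisons. Probe set 1625385_at read 7.05 and 7.51 on the wild type arrays, 7.07 and 7.70 with GFP RNAi and 7.09 and 7.72 with LID RNAi. The 9 comparisons are of 3 probe sets of 1 gene on the same arrays and are not independent. Of 18769 probe sets 3180 (16.9%) were higher on the array numbered 2 in all 3 groups, and 2639 on the array numbered 1. This pattern was noticed after the values were seen and was not tested.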
